A study of Homo sapiens with 8 samples.

Results

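At 114 protein-coding genes, the H3K4me3 peak over the transcription start site (TSS) was narrower in HL-60 cells treated with all-trans retinoic acid (ATRA) than in control cells. These genes were chosen by their measured peak widths. A gene was tested if its TSS lay under an H3K4me3 peak in each of the 4 H3K4me3 libraries, and it was called narrowed if the larger of its 2 ATRA widths was at most 0.9 of the smaller of its 2 control widths. Of 20136 protein-coding genes, 9490 were tested and 114 passed, which is 1.20% of those tested. The 114 genes lay under 103 distinct control peaks, out of 7653 control peaks over tested genes. The mirror rule, applied in the other direction, called 1825 genes under 1530 control peaks widened (19.2%). With a library left out fewer widths have to meet the rule, and 391 genes passed without ATRA replicate 1, 302 without ATRA replicate 2, 188 without control replicate 1 and 1049 without control replicate 2, each time with all 114 among them. Because the widths chose the members, their widths are described below without a test, and tests are kept for H3K27ac, which the rule did not use.

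HL-60 is a human cell line grown from promyelocytic leukemia blood, and it matures towards granulocytes when given ATRA. The ATRA group received 1 µM ATRA for 4 days and the control group received the same volume of ethanol, the solvent of ATRA. For each of H3K4me3 and H3K27ac, 2 libraries of ATRA-treated and 2 of control cells were sequenced, which makes 8 libraries. All of them come from this single line, no gene was altered in it, and the labels do not say whether the 2 replicates were separate cultures, so their spread may be technical.

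H3K4me3 is trimethylation of lysine 4 of histone H3, which SET1 and MLL enzymes place on the nucleosomes around the start of active genes. Most promoters carry it over a short stretch, and genes that define a cell's identity often carry it over long domains that reach into the gene body. H3K27ac, acetylation of lysine 27 placed by p300 and CBP, marks active promoters and enhancers. Peak width therefore describes how far the called mark reaches from the TSS. A narrower peak can stand for fewer cells with the mark at its edges or for less of the mark in each cell, which cannot be told apart in bulk chromatin. It can also come from library depth or from a peak that was called in pieces, and the part of depth was not tested.

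The H3K4me3 libraries held between 13241 and 16487 peaks and the H3K27ac libraries between 15457 and 39332. The lowest H3K4me3 number belonged to control replicate 2 and the lowest H3K27ac number to control replicate 1. Over all tested genes, the median H3K4me3 width was 5788 and 5775 bp in the ATRA libraries against 5425.5 and 4701 bp in the control libraries. The members thus went against a shift to wider median peaks in ATRA, and that shift was uneven. Over all tested genes, the median ratio of ATRA to control width was 1.049 in replicate 1 and 1.195 in replicate 2. The median ratio of control replicate 2 to control replicate 1 was 0.877, so the controls differed more than ATRA and control did in replicate 1. The part of library depth in that shift was not tested. When every width was divided by the median width of its library, 774 genes were narrowed and 723 were widened, and all 114 members were among the 774. The members had to stay, because both ATRA medians lay above both control medians. The division thus lowers each ratio of ATRA to control width, and it could not remove a member. Of 8 promyelocyte marker genes, 5 (SPI1, CTSG, MPO, CD33 and MYC) had H3K4me3 at the TSS in all 4 libraries. This held for 0 of 7 monocyte and macrophage markers, 2 of 14 lymphoid markers (CD4 and LEF1) and 1 of 12 erythroid and megakaryocyte markers (ITGA2B).

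Pairs of sequences from 2 members, both progenitor transcription factors, show which DNA kept H3K4me3 and which DNA lost it. A lost stretch is defined here as bases under the covering peak in both control libraries and under no H3K4me3 peak in either ATRA library. In each pair, the first sequence is the 150 bases just before the TSS, and the second is the middle 150 bases of the longest lost stretch. They are from hg19, written 5′ to 3′ on the strand of the gene, with each CpG in capitals. MYB lies on the plus strand and IKZF2 on the minus strand.
MYB, 150 bases before the TSS, chr6:135502296-135502445: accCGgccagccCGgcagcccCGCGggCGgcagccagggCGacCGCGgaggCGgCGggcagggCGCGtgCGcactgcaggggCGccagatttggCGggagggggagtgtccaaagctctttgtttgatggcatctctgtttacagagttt
MYB, middle of the lost stretch, chr6:135510608-135510757: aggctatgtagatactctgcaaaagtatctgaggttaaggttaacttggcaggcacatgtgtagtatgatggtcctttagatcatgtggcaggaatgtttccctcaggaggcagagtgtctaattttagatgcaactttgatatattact
IKZF2, 150 bases before the TSS, chr2:214017152-214017301: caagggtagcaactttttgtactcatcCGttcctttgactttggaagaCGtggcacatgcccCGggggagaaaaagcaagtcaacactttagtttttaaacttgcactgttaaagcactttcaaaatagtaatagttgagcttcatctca
IKZF2, middle of the lost stretch, chr2:214008974-214009123: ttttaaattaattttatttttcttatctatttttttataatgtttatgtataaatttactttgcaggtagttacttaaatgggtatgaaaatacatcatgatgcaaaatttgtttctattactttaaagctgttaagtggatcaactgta
Of the 4 windows, the 2 before the TSS lay wholly under H3K4me3 in each library, and the 2 lost windows lay wholly under it in both control libraries only. Both lost windows lay in introns, with 0 exonic bases. The MYB windows held 15 CpGs before the TSS and 0 in the lost stretch, and those of IKZF2 held 3 and 0. The loss of the mark thus fell on CpG-poor intronic DNA in both examples, while the DNA before the TSS was CpG-rich at MYB and not at IKZF2.

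The members ranged from barely inside the rule to ratios below 0.5. The median member kept a ratio of 0.82, 41 members were at 0.8 or below, and 5 lay under 0.5, namely CORO2A, PRG2, GANAB, IL12A and IL32. None of these 5 passed under all alternatives to the rule. With only peaks of −log10 q of at least 5 kept, PRG2, IL12A and IL32 were no longer tested, and the limits of CORO2A and GANAB are given below. The median width over the members was 4513.5 and 4534.5 bp in the ATRA libraries and 6089 and 5725.5 bp in the control libraries. The smallest ratio just outside the rule was 0.9001 at AMZ2, followed by 0.9004 at both PGBD5 and DERL3. Just inside it were TEAD4, at 0.90, and DXO and STK19, which face each other under a single peak, also at 0.90. The change was graded at this end of the list, and the threshold of 0.9 is a convention.

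**Figure D1:**
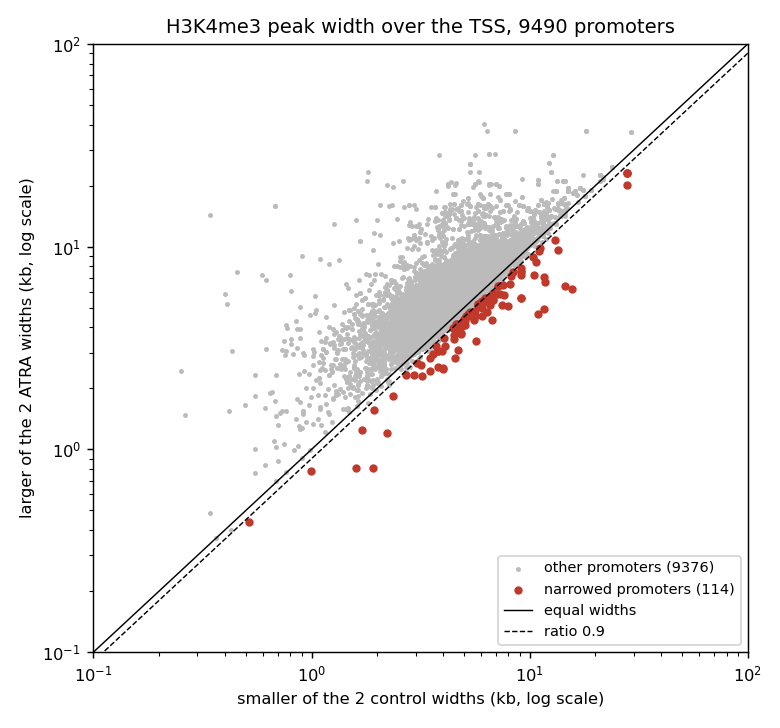
Larger of the 2 ATRA widths against the smaller of the 2 control widths of the H3K4me3 peak over the TSS (kb, log axes) for 9490 promoters, with the 114 narrowed promoters in red. The solid line marks equal widths and the dashed line the ratio of 0.9, and most grey points lie above both lines.

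The member with the smallest ratio was CORO2A, which encodes an actin-binding coronin. Its peak was 6184 and 6182 bp wide in the ATRA libraries and 15727 and 15700 bp in the control libraries, a ratio of 0.39 with little spread in either group. The mark was not lost over all of the difference, since 2 further ATRA peaks in each library lay inside the control stretch and only 2088 bp were left uncovered. With peaks at most 1000 bp apart merged, the log2 ratio of CORO2A went from -1.34 to -0.04 and it was no longer narrowed. IL32, a cytokine gene, was similar, with 6434 and 6127 bp in ATRA against 14903 and 14488 bp in control, and 2451 bp uncovered. GANAB, the catalytic subunit of glucosidase II, and INTS5, a subunit of the Integrator complex, shared a control peak of 13250 and 11589 bp. In ATRA the peak over the GANAB TSS was 4909 and 4810 bp wide and that over the INTS5 TSS 4936 and 7108 bp, and 978 bp between them were uncovered. When all length under peaks was counted, the GANAB ratio turned to a log2 of 0.02, so this pair records a peak cut into pieces more than a loss of the mark.

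PRG2 and CST7 were the narrowed genes of the primary granule list, 2 of its 6 tested genes, beside 1.20% of all tested genes. PRG2 encodes the major basic protein of eosinophil granules. Its peak measured 4649 and 2967 bp in ATRA against 16157 and 10977 bp in control. It lost 6328 bp in all, the largest summed length of any member, of which 3805 bp lay upstream of the TSS at chr11:57158863-57162667 and 2523 bp downstream. CST7, encoding cystatin F, an inhibitor of granule cathepsins, fell from 5695 and 6505 bp in control to 2172 and 3425 bp in ATRA. At PRG2 the 2 control libraries differed widely from each other, and the narrower of them was still above both ATRA libraries. Of the other 4 tested genes on this list, 2 were widened, beside 19.2% of all tested genes, and 2 were called in neither direction.

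**Figure D2:**
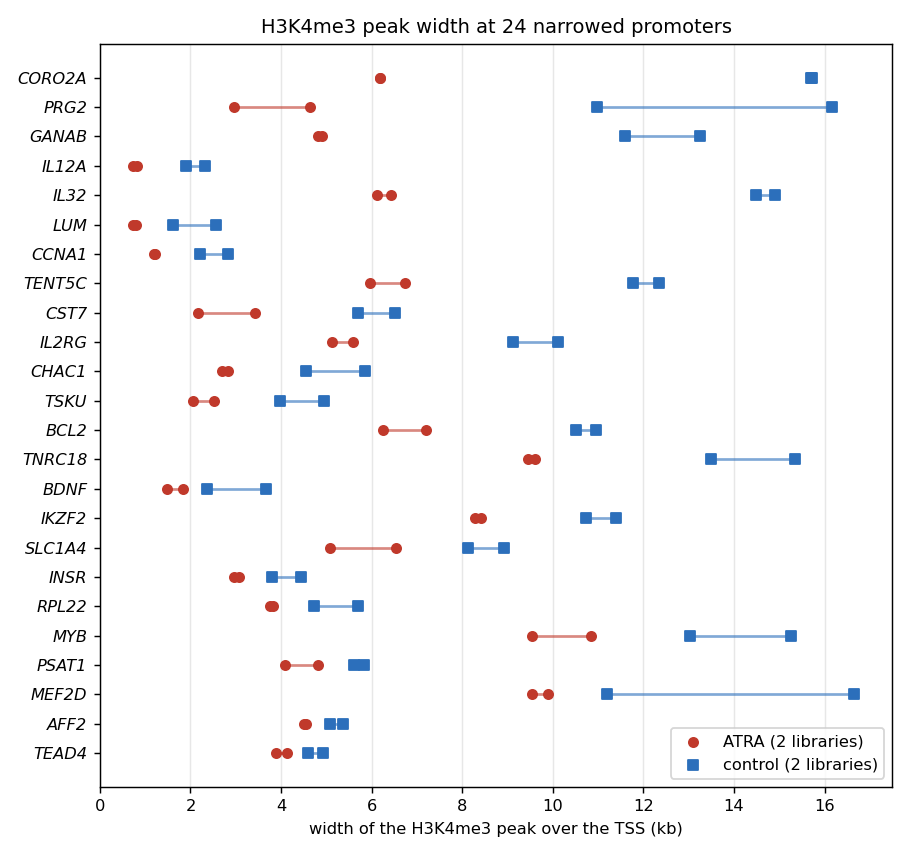
Width of the H3K4me3 peak over the TSS (kb) at 24 narrowed promoters, ordered by ratio, with 1 point per library (red circles, ATRA; blue squares, control) and a line joining the 2 replicates. CORO2A fell from 15727 and 15700 bp to 6184 and 6182 bp, and the groups do not overlap in any row because the rule requires it.

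Among stem and progenitor transcription factors, 2 of 17 tested genes were narrowed, MYB and IKZF2, and 1 was widened, beside 1.20% and 19.2% of all tested genes. MYB, a factor that keeps hematopoietic progenitors dividing, had a peak of 10837 and 9545 bp in ATRA and 15251 and 13030 bp in control. The whole of its lost stretch of 2215 bp lay downstream, in the gene body at chr6:135509576-135511790. IKZF2, which encodes the zinc finger factor Helios, had 8420 and 8286 bp in ATRA and 11406 and 10725 bp in control. Most of its loss, 2021 bp, lay at the far downstream end at chr2:214008039-214010059. The median ratio over the 17 tested genes of this list was 1.06 against 1.30 over all tested genes. MEF2D, a MADS-box factor first known from muscle, had 9895 and 9543 bp in ATRA and 16646 and 11195 bp in control. Its call depended on how pieces of a peak are joined, because merging peaks at most 1000 bp apart gave a log2 ratio of 0.02 and counting all length under peaks gave 0.03.

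BCL2, the founding inhibitor of apoptosis, was the narrowed gene of the BCL2 family and death genes, 1 of 13 tested, while 3 of the 13 were widened, beside 1.20% and 19.2% of all tested genes. Its peak was 6243 and 7210 bp wide in ATRA and 10950 and 10519 bp in control. The lost 3338 bp lay entirely downstream of the TSS at chr18:60979604-60982941, and 1907 of them were annotated as exon and 1431 as intron. The upstream edge stayed in place, moving by 150 bp on average. At INSR, the insulin receptor gene, the widths were 3064 and 2970 bp in ATRA against 4439 and 3809 bp in control, with 982 bp of intron lost. TENT5C, which encodes a noncanonical poly(A) polymerase, had the longest downstream loss, 4813 bp at chr1:118152971-118157783. Its widths were 5972 and 6726 bp in ATRA and 12340 and 11779 bp in control. TNRC18, a chromatin reader gene, lost 3318 bp, with 9459 and 9608 bp in ATRA and 15357 and 13489 bp in control.

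**Figure D3:**
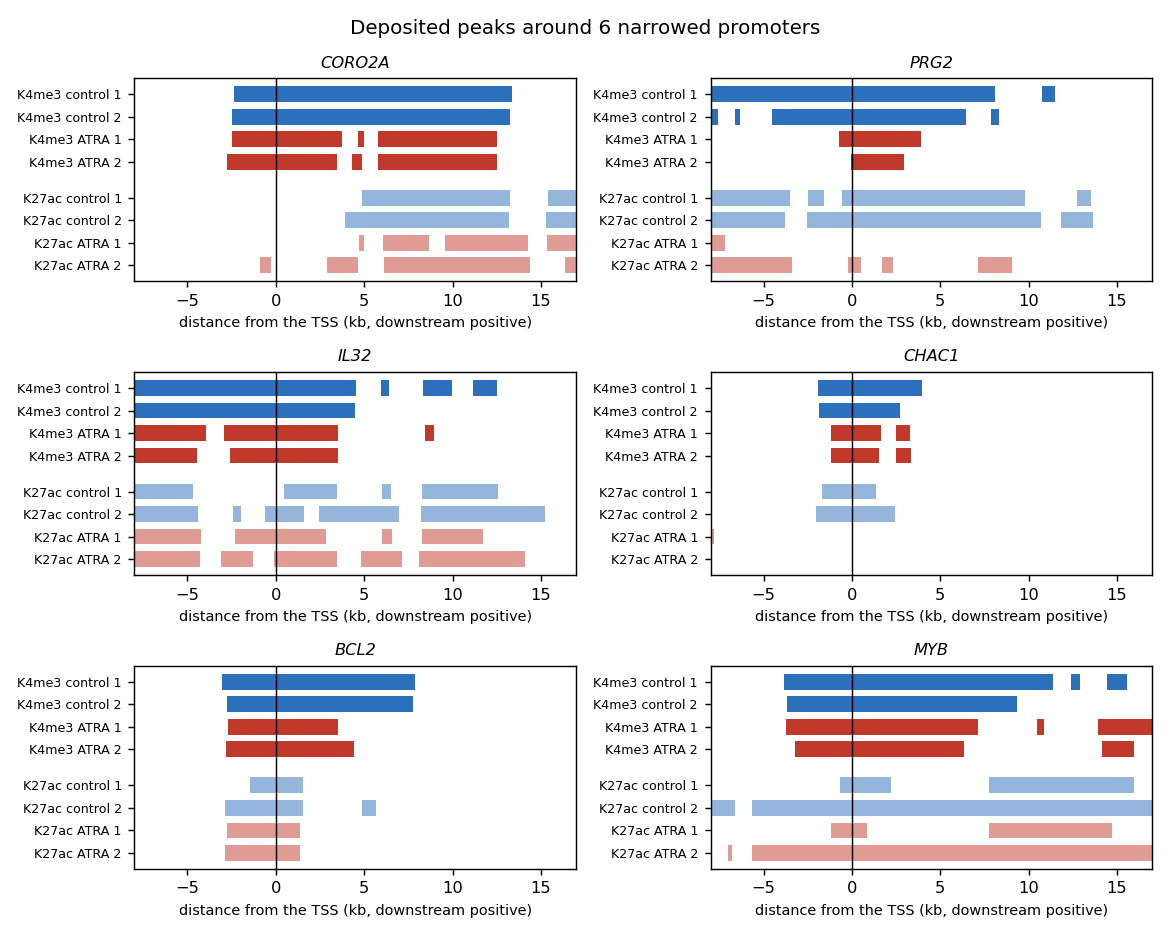
Deposited peaks around the TSS of 6 narrowed promoters, plotted as distance from the TSS in kb with the direction of transcription to the right. Dark bars are H3K4me3 peaks, pale bars H3K27ac peaks, blue is control and red is ATRA, with 1 row per library and peaks cut at the plot edges. At BCL2 and MYB the left edges line up and the right edges differ, while at CORO2A and IL32 the ATRA signal continues in separate peaks.

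CHAC1, which encodes an enzyme that degrades glutathione, was the member at which both marks were reduced most clearly. Its H3K4me3 peak was 2822 and 2698 bp wide in ATRA and 5863 and 4546 bp in control. Within 2000 bp on each side of the TSS, a window of 4001 bp, H3K27ac peaks covered 0 and 0 bp in ATRA and 3051 and 4001 bp in control. CHAC1 was the 1 member with H3K27ac over the TSS in both control and neither ATRA library. When H3K4me3 peaks at most 1000 bp apart were merged, its ratio rose to a log2 of -0.02 and it left the members, because a further ATRA peak lay just downstream. PSAT1, a serine synthesis enzyme, and SLC1A4, a transporter of neutral amino acids, are with CHAC1 targets of ATF4 in the amino acid response. A list of such targets was drawn up after these values were seen, so its count is a description only. It had 3 narrowed and 6 widened of 22 tested, beside 1.20% and 19.2% of all tested genes. PSAT1 had 4093 and 4820 bp in ATRA against 5838 and 5600 bp in control, and SLC1A4 had 5088 and 6528 bp against 8916 and 8125 bp. H3K27ac near the PSAT1 TSS covered 0 and 675 bp in ATRA and 3101 and 3757 bp in control.

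IL12A, LUM, CCNA1 and IL2RG were also among the members with the lowest ratios. IL12A, a subunit of interleukin 12, had short peaks of 811 and 733 bp in ATRA and 2325 and 1904 bp in control, with no H3K27ac near the TSS in any library. IL2RG, the common gamma chain of interleukin receptors, had 5132 and 5589 bp in ATRA and 10118 and 9132 bp in control, and an unnamed gene (ENSG00000285171) lay under the same peak. LUM, encoding the matrix proteoglycan lumican, had 805 and 733 bp against 2564 and 1606 bp. CCNA1, the cyclin A1 gene, had 1211 and 1194 bp against 2833 and 2215 bp. These 3 peaks were short in each library, so that a shift of an edge changes the ratio. All of the lost length at IL12A, LUM and CCNA1 lay downstream of the TSS, at 906, 1028 and 1006 bp.

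Of the remaining lists, cytosolic ribosomal proteins had 2 narrowed and 4 widened of 74 tested. RPL22, 1 of these 2, had 3830 and 3756 bp in ATRA and 5693 and 4737 bp in control. None was narrowed among 36 tested ribosome biogenesis genes, 37 DNA replication genes, 27 mitosis genes, 23 cyclins, CDKs and E2F factors, 20 nucleotide synthesis genes, 19 aminoacyl-tRNA synthetases, 34 chromatin modifiers or 13 proteasome genes. The same held for 12 C/EBP, ETS, RUNX and IRF factors, 10 neutrophil effector genes, 5 progenitor surface receptors and 4 retinoic acid receptors and targets. With 1.20% of tested genes narrowed, a count of 0 is no result for lists of this size. Neutrophil effector genes had the larger count on the other side, 5 of 10 widened, against 19.2% of all tested genes.

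The rule keeps out genes that lost the peak over the TSS altogether. GATA2, a progenitor factor of the GATA family, had no H3K4me3 over its TSS in either ATRA library and widths of 16334 and 13119 bp in the control libraries. ZBTB16, a zinc finger factor also called PLZF, had 3127 and 0 bp in ATRA and 6150 and 6577 bp in control. TERT, the telomerase subunit, had a peak only in control replicate 1, of 1265 bp, and CD38 only in ATRA, of 4547 and 9190 bp. At RUNX1, RUNX3, RARA and RXRA the gene start used here had no H3K4me3 peak in any library, and RUNX1, for example, has a further promoter inside the gene. SPI1, PML and MYC were tested and not narrowed, with ratios of 1.58, 1.01 and 1.12.

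Most members lost H3K4me3 on the gene body side. A lost stretch was present at 110 of the 114 genes, and the lost length of a gene, summed over its stretches, had a median of 876 bp over all members. With each control peak counted once, the lost stretches summed to 107003 bp, of which 70.3% lay downstream of the TSS. The median share downstream over these peaks was 100%, and 57.8% when the rule was applied without control replicate 2. At 64 genes more than 90% of the loss was downstream, and at 27 genes less than 10% was. Both ATRA edges lay inside both control edges on the downstream side only at 61 genes, on the upstream side only at 23, on both sides at 26 and on neither side at 4. TONSL, a DNA repair scaffold, was the clearest upstream case, with 2293 bp lost upstream and none downstream, and widths of 4957 and 5120 bp in ATRA against 8785 and 7923 bp in control. OAF lost 1297 bp downstream and the rest of its 2363 bp upstream.

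The downstream share of the loss can be set beside the shape of the control peaks. The stretch shared by both control peaks lay downstream of the TSS for a median of 70.1% of its length at the members and of 67.4% at all tested promoters. These are medians over peaks, while the 70.3% of lost bases at members is a share of a sum. As a median over peaks, the downstream share of the loss was 100%. At 312 control peaks that were not narrowed and still had a lost stretch of at least 200 bp, 56.1% of the lost bases lay downstream, against 70.3% at the 93 such peaks of members. The loss was mostly downstream at 69.9% of these member peaks and at 55.4% of the others. By annotation, 11.3% of the lost bases at members were exonic, 61.7% intronic and 27.1% outside genes, against 10.6%, 58.6% and 30.9% over all tested promoters. These shares differ by a few percentage points. The reference of all tested promoters includes the members, with 107003 of its 299861 bp. The members therefore differ more from the other promoters than these shares show.

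**Figure D4:**
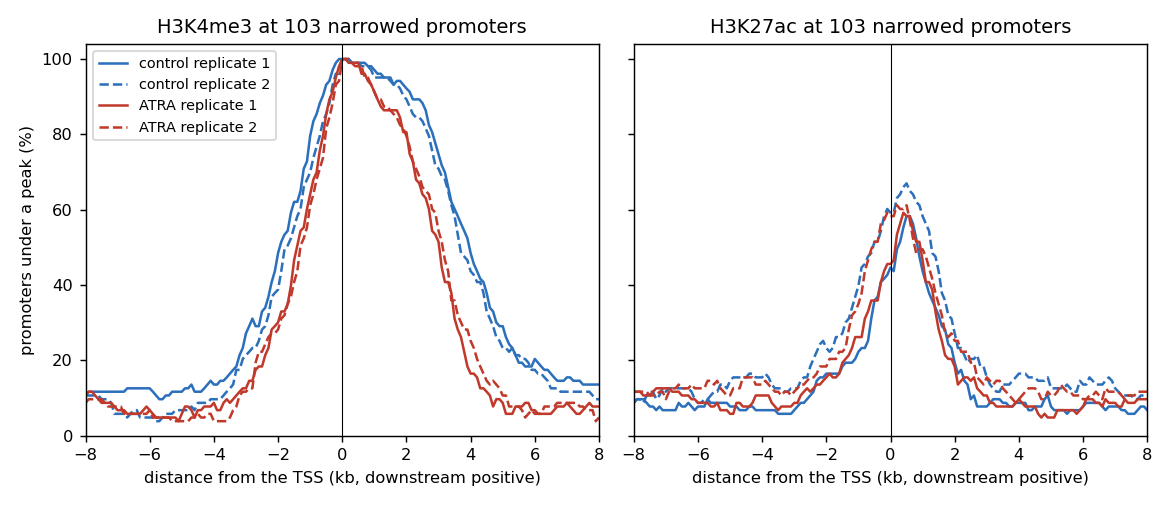
Percent of the 103 narrowed promoters, 1 per control peak, under an H3K4me3 peak (left) and an H3K27ac peak (right) by distance from the TSS in kb, with 1 line per library (blue, control; red, ATRA; dashed, replicate 2). At 3 kb downstream, H3K4me3 covered 51.5 and 54.4% of these narrowed promoters in ATRA and 74.8 and 70.9% in control.

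Across the narrowed promoters, the distance profile of H3K4me3 differed on both sides of the TSS. At 2000 bp upstream, 30.1 and 28.2% of them were under a peak in ATRA and 48.5 and 38.8% in control, and at 5000 bp downstream 8.74 and 10.7% against 29.1 and 23.3%. The H3K27ac profile did not separate by treatment in this way. At the TSS, 45.6 and 58.3% were under an H3K27ac peak in ATRA and 44.7 and 59.2% in control, so that the libraries grouped by replicate number.

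The DNA of the lost stretches had fewer CpGs than the DNA that kept the mark. The observed to expected CpG ratio was a median of 0.26 in lost stretches and 0.54 in the core under all 4 peaks, and the core was higher at 88 of the 105 members compared. This was no property of the members, because at the 312 other control peaks with a lost stretch the medians were 0.24 and 0.56. The outer 1000 bp of the downstream end of the control stretch had a median ratio of 0.27 at members and 0.25 at all tested promoters. The 250 bp before the TSS had a median ratio of 0.75 at the members and 0.81 at all tested promoters.

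Motif searches of these 250 bp, on both strands, gave shares near those of all tested promoters. The GATA letters AGATAA were present at 8 members, 7.02% against 4.84% of all tested promoters, and the GC box GGGCGG at 53.5% against 63.2%. The CCAAT box was present at 28.1% against 34.7%, the ETS core GGAAGT at 21.9% against 23.8% and the E-box CACGTG at 7.02% against 8.86%. The letters TGATGNAA of a C/EBP-ATF site were found at 2.63% against 1.54%, the TATA box TATAAA at 4.39% against 5.52% and the retinoic acid receptor core letters AGGTCA at 6.14% against 9.18%. A match of letters is not a bound site.

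H3K27ac gave a readout that the rule had not used. Its change was measured as the log2 ratio of ATRA to control of the mean length under H3K27ac peaks in the 4001 bp window, with 200 bp added to each. Over the members the median was 0.00, with 52 below 0, 51 above and 11 at 0, while it was 0.26 over all tested genes and 0.38 over the widened genes. With each control peak counted once, the members lay 0.26 below all tested genes on the log2 scale. The difference was -0.11 without control H3K4me3 replicate 2 and -0.42 without control H3K27ac replicate 2, and it was 0.00 with a window of 500 bp on each side or with stricter H3K27ac peaks. An exact two-sided permutation test over the 4 H3K27ac libraries was made on a quantity in bp, not on this log2 difference. For each library it took the median H3K27ac length of members, 1 per control peak, minus that of all tested genes. These values were -445.5 and -562 bp in ATRA and -43.5 and 181 bp in control. This exact permutation test gave p = 0.333, the smallest value that 2 libraries against 2 allow, so this design cannot reach 0.05. The ATRA H3K27ac libraries had more peaks than the control libraries of the same number, which moves with the rise over all genes, and its part in that rise was not tested.

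**Figure D5:**
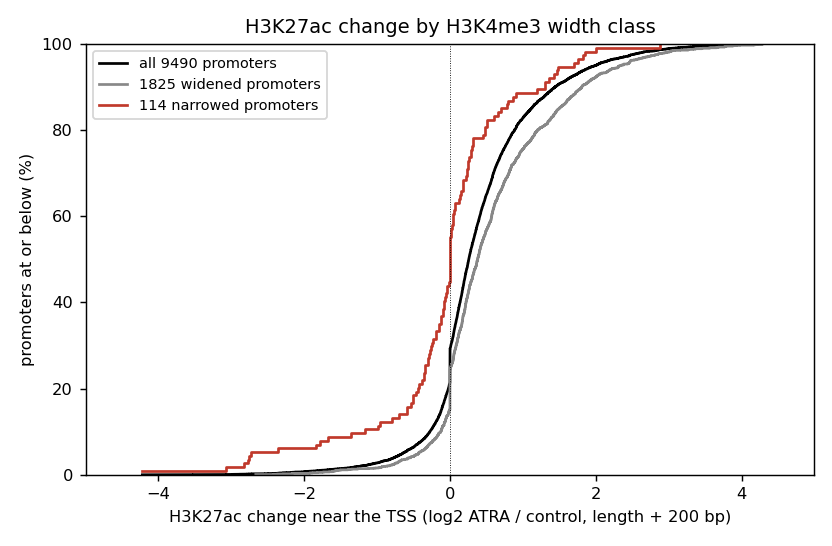
Cumulative percent of promoters by change in H3K27ac length near the TSS (log2 of ATRA to control, 200 bp added) for 9490 tested, 1825 widened and 114 narrowed promoters. The red line of the narrowed promoters lies to the left of the others over most of its range, with a median of 0.00 against 0.26 for all tested.

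At 16 members, 14.0%, both ATRA libraries had less H3K27ac near the TSS than both control libraries, against 4.23% of all tested genes and 2.79% of widened genes. In the opposite order there were also 16 members, 14.0%, against 31.6% of all tested genes and 35.3% of widened genes. Lower H3K27ac was found at CHAC1, BDNF, AFF2, PSAT1, MCTP2, PRG2, INSR, TREX2, PLD6, SLC1A4, CCM2, TNRC18, INPP5B and MLC1, and at the overlapping DNAJC25 and DNAJC25-GNG10. Higher H3K27ac was found, among others, at C15orf40, INTS5, TTF1 and LCN12, and at IL32. With only H3K4me3 peaks of −log10 q of at least 5 kept, 81 of the 114 members were still tested. Of the genes with lower H3K27ac, only CHAC1, PLD6, SLC1A4, TNRC18 and MLC1 were among these 81. Of the genes with higher H3K27ac, all but INTS5, IL32 and FCHSD2 were. The lower group thus rests mostly on H3K4me3 peaks that this filter removes. A narrower H3K4me3 peak thus went with H3K27ac in either direction, and no test of these shares was made.

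The largest falls of H3K27ac were at CHAC1, at a log2 of -4.22, BDNF at -3.07, DEPTOR at -2.83 and AFF2 at -2.78. BDNF, a neurotrophin gene, had H3K27ac over 0 and 0 bp in ATRA and 2115 and 834 bp in control, and its H3K4me3 peak fell from 3677 and 2371 bp to 1824 and 1478 bp. AFF2, a gene of the AF4 family, had 0 and 0 bp in ATRA against 200 and 2142 bp in control. DEPTOR, an inhibitor of mTOR, had H3K27ac in control replicate 2 alone, over 2441 bp, so its fall rests on 1 library. PRG2 had 0 and 1045 bp in ATRA against 2983 and 4001 bp in control. Replicates of the same group thus differed widely at BDNF, AFF2 and PRG2, while the order of the groups held at each of them.

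The largest rises were at C15orf40, at a log2 of 2.88, INTS5 at 2.01, TTF1 at 1.85 and LCN12 at 1.83. C15orf40 had H3K27ac over 1254 and 1287 bp in ATRA and 0 and 0 bp in control, beside H3K4me3 widths of 3549 and 3426 bp against 4125 and 4047 bp. INTS5 had 4001 and 2913 bp in ATRA against 663 and 759 bp in control. At TTF1, the terminator factor of RNA polymerase I, H3K27ac covered 1521 and 1267 bp in ATRA and 483 and 0 bp in control. The gene LCN12, a lipocalin, had 2325 and 2774 bp against 231 and 918 bp.

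Seen as presence over the TSS, H3K27ac did not set the members apart. A peak covered the TSS in both control and no ATRA library at 1 member, 0.877% against 0.717% of all tested genes, and in both ATRA and no control library at 4, 3.51% against 4.77%. The first count was 8 without ATRA H3K27ac replicate 2, and 17 when a loss within 1 replicate number and no gain in the other was enough. Those 4 were NLRP12, an inhibitory immune receptor, DPAGT1, which starts N-glycan synthesis, FCHSD2 and C15orf40. It was present in all 4 libraries at 39 members, 34.2% against 37.2%, in none at 31, 27.2% against 21.0%, and in other patterns at 39, 34.2% against 36.4%. None of these shares was far from that of all tested genes.

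On the lost stretches themselves H3K27ac was reduced as well. At the 93 member peaks with at least 200 bp lost, H3K27ac peaks covered 12.2 and 19.1% of the lost bases in ATRA and 22.7 and 33.7% in control. Over the bases that kept H3K4me3 the values were 37.9 and 46.5% in ATRA and 38.3 and 53.0% in control. At the 312 other control peaks the lost bases were covered for 12.2 and 15.0% in ATRA and 7.62 and 17.3% in control. On the lost bases of members, each ATRA library lay below both control libraries, which was not so at the other peaks. The sums rest on few peaks, since at 5 of the 93 both ATRA libraries were below both control libraries and at 1 they were above, 5.38% and 1.08% against 1.28% and 3.53% of the 312 other peaks.

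H3K4me3 could be lost where H3K27ac stayed. In MYB, the 2215 bp that lost H3K4me3 were under H3K27ac for 1582 and 2215 bp in ATRA and for the same 1582 and 2215 bp in control. At TENT5C the lost 4813 bp were covered for 2473 and 4813 bp in ATRA and 3982 and 4813 bp in control. PRG2 was the opposite case, with 0 and 1138 bp of its lost 6328 bp covered in ATRA and 4417 and 5074 bp in control. BCL2 had no H3K27ac on its lost stretch in 3 libraries, and 801 bp in control replicate 2. Near the BCL2 TSS, H3K27ac covered 3380 and 3350 bp in ATRA and 2976 and 3523 bp in control, and the groups overlapped.

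Members were also found on the study's list of Loss genes. This list holds differentially expressed genes whose 40 kb region had weaker Hi-C contacts with H3K27ac regions after ATRA, and the Gain list holds those with stronger contacts. Of 61 Loss genes, 42 were tested and 8 of them were narrowed (CHAC1, BCL2, TNRC18, IKZF2, INSR, MYB, MEF2D and AFF2), which is 19.0% against 1.20% of all tested genes. Of these 8, CHAC1 and MEF2D were not narrowed with peaks at most 1000 bp apart merged. INSR and AFF2 were no longer tested with peaks of −log10 q of at least 5. The tested genes were not chosen by expression, so the contrast combines differential expression with weaker contacts. Of 164 Gain genes, 106 were tested, 1 was narrowed (TSKU) and 54 were widened. These are 0.943% and 50.9%, against 1.20% and 19.2% of all tested genes. Loss genes made up 7.02% of the members, 0.0548% of the widened genes and 0.443% of all tested genes. The median ratio was 1.17 over tested Loss genes, 1.77 over Gain genes and 1.30 over all tested. These lists were made from the same cells with the same H3K4me3 and H3K27ac peaks, so they are not independent evidence of direction.

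The 8 narrowed Loss genes differed from each other in H3K27ac. At CHAC1, AFF2, INSR and TNRC18 it was lower near the TSS in both ATRA than in both control libraries. INSR had 0 and 0 bp in ATRA and 279 and 753 bp in control, and TNRC18 had 2595 and 3429 bp against 4001 and 4001 bp. For MYB it was 2079 and 4001 bp in ATRA and 2680 and 4001 bp in control, and for IKZF2 2101 and 2772 bp against 2507 and 3141 bp, which overlap. TSKU, the Gain gene, encodes the secreted protein tsukushi and had no H3K27ac near the TSS in any library. Its H3K4me3 widths were 2526 and 2047 bp in ATRA and 4958 and 3987 bp in control.

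Some members are narrow because a long control peak broke into pieces. Further ATRA peaks lay inside the shared control stretch in both libraries at 14 members, 12.3% against 0.232% of all tested genes, a pattern that the rule on the covering peak favors. More than 1 protein-coding TSS lay in the shared control stretch at 18 members, 15.8% against 35.0% of all tested genes. Without the members with split peaks or shared stretches, 90 genes under 89 control peaks were left, and none of them had lost H3K27ac over the TSS.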

How the data were processed

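For both histone marks, broad peaks of 2 ATRA-treated and 2 control HL-60 replicates were used. The authors trimmed adapters, mapped reads with Bowtie (hg19) and ran MACS2 per library in broad mode with no fragment model. Versions and the use of the genomic input in the peak call are not given in the sources used here. The authors deposited positions, which give peak widths in bp, and a −log10 q per peak, which served only as a filter at 5. The deposited fold and −log10 p columns hold values these measures cannot take and were not used. Read numbers behind peaks are unknown, so precision rests on the replicates.

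The TSS was the 5′ end of each protein-coding gene in GENCODE release 44 on GRCh37. Windows, lost stretches and H3K27ac lengths were computed with Python 3.11.15, numpy 2.4.6, pandas 2.3.3 and pysam 0.24.0, and checked on simulated peak lists. H3K27ac was compared by an exact permutation test over libraries, on the median length in bp of members minus that of all tested genes. The members, gene lists and rules were chosen with earlier results of these data known. Genes named were those with the lowest ratios, the longest lost stretches, the largest H3K27ac changes, those at the threshold, those on the lists, and those the study discusses, apart from a few that are left out here.

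Peak names of same-numbered libraries carry a common tag, and over 9490 promoters their deviations from the group means correlated (Pearson r = 0.196 for H3K4me3 width and 0.369 for H3K27ac length). The replicate numbers were therefore taken to pair libraries. The permutation test did not use this pairing, and only the replicate block alternatives did. Alternatives changed the TSS set, the threshold, the peaks, the window, the pseudocount and the libraries.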

Additional observations from a re-analysis of the deposited data

How the results depend on the processing

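The H3K4me3 rule was recomputed under 13 alternatives. The number of narrowed genes (114) and of control peaks (103) changed to 41 and 39 at a ratio of 0.8, 218 and 191 at 0.95, 646 and 527 with mean widths, 774 and 636 with widths divided by the library median, and 189 and 169 with the replicate block, in which ratios are taken within replicate numbers. Leaving out each H3K4me3 library gave 188 to 1049 genes and 163 to 855 peaks, the highest without control replicate 2 and the lowest without control replicate 1, since fewer widths then have to meet the rule. In every alternative but 5, all 114 members passed, and there they could not fail. Those alternatives are looser than the rule or, with widths divided by the library median, lower each ratio of ATRA to control. Each of the 5 that could remove members did so. These were the ratio of 0.8 (41), any transcript start (112), peaks of −log10 q of at least 5 (81, all that were still tested), merged peaks (92) and length under any peak (96). In all 13 alternatives together, 19 members passed.

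The H3K27ac difference of -0.26 kept its sign in its alternatives, the replicate block included (-0.27) and with each library left out (-0.42 to -0.11), other than peaks of −log10 q of at least 5 and a window of 500 bp on each side, which both gave 0.00. At the main settings the median over members was 0.00, so the difference is the rise over all tested genes, 0.26, with its sign turned. Because p cannot go below 0.333 here, p says nothing of stability. Genes that lost H3K27ac over the TSS (1) numbered 3 at a ratio of 0.95, 6 with mean widths, 8 with scaled widths, 2 with length under any peak, 2 with the replicate block on widths and 17 with the replicate block on H3K27ac, 5 with peaks within 1000 bp of the TSS, and 0 with merged H3K4me3 peaks or stricter H3K27ac peaks. Leaving out a library gave 1 to 8, with 7 or more without control H3K4me3 replicate 2, control H3K27ac replicate 1 or ATRA H3K27ac replicate 2. The median downstream share of the lost length (100%) was 90.7% at a ratio of 0.8, 77.7% with mean peak ends and 57.8 to 96.0% without each library, the lowest without control replicate 2. An alternative chosen after seeing the data, without split peaks and shared peaks, gave 0 genes that lost H3K27ac. It left 90 genes under 89 control peaks, an H3K27ac difference of -0.26 and a median downstream share of 100%. The log2 width ratio of CORO2A was -0.04 with merged peaks. It turned to 0.0167 at GANAB with all length counted, and to 0.0169 and 0.0306 at MEF2D with merged peaks and all length counted. The causes were not tested.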
